A study of Mus musculus with 12 samples.

Results

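The tubulin isotypes described here are 10 genes of the mouse, the alpha-tubulins Tuba1a, Tuba1b, Tuba1c and Tuba4a and the beta-tubulins Tubb2a, Tubb2b, Tubb3, Tubb4b, Tubb5 and Tubb6. They were chosen by symbol from the 47069 genes of an RNA-seq table, and each was found in 1 row. The table holds 12 libraries of polyadenylated RNA from mice at postnatal day 14, with 3 libraries in each of 4 groups: isolated hepatocytes and whole liver from wild type (WT) mice, and both from Cdk1 Liv-/- mice. Cdk1 Liv-/- mice came from crossing Cdk1 flox/flox to Albumin-Cre, so that Cre is driven by the albumin promoter and Cdk1 is deleted in the hepatocyte lineage. The study reported a partial loss of Cdk1 already in embryonic hepatoblasts. In Cdk1 Liv-/- liver it saw staining for the deleted part of the mRNA in interstitial cells and not in hepatocytes. The sources used here do not say whether the WT mice carried the floxed allele. Values are FPKM, fragment estimates divided by transcript length and by the total of the library, so levels can be compared between genes per length. The labels do not say whether hepatocyte and liver libraries came from the same mice, nor that each library is a separate mouse, so p-values measure the spread between these libraries. In bulk RNA, fewer cells of a type and less RNA per cell cannot be told apart.

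Microtubules are hollow polymers of heterodimers, each made of an alpha-tubulin and a beta-tubulin. They form the mitotic spindle in dividing cells, and in hepatocytes they carry vesicles with secreted proteins and keep the cell polar toward the bile canaliculus. Mammals encode several near-identical isotypes of both subunits, which copolymerise and differ mostly in their acidic C-terminal tails. Tuba1b, Tuba1c, Tubb5 and Tubb4b are widely expressed, Tuba1a, Tubb2b and Tubb3 are best known from neurons, and Tuba4a is the alpha isotype whose mRNA does not encode the C-terminal tyrosine. Cells hold tubulin in balance by autoregulation, in which excess soluble heterodimer leads to decay of tubulin mRNA during its translation.

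The alpha-tubulin 1 genes lie side by side on chromosome 15 within 106.7 kb in mm10 (chr15:98931425-99038110), with Tuba1b at chr15:98931425-98934565 and Tuba1a at chr15:98949837-98953703 on the minus strand and Tuba1c at chr15:99029891-99038110 on the plus strand. Tuba4a is at chr1:75214228-75219865 on the minus strand. Tubb2a at chr13:34074274-34078007 and Tubb2b at chr13:34126748-34130466, both on the minus strand, are neighbours within 56.2 kb. Tubb3 is at chr8:123411424-123422015 on the plus strand, Tubb4b at chr2:25222160-25224702 and Tubb5 at chr17:35833921-35838306 on the minus strand. All are protein-coding genes in GENCODE M21.

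Promoter sequences from RefSeq (GRCm38.p6) were matched for 8 of the 10 isotypes, all but Tubb2b and Tubb6, and the 250 bases before the start that RefSeq annotates were searched on both strands. That start can differ from the one in GENCODE, so that the window of Tuba4a lies inside the GENCODE gene and those of Tuba1a, Tuba1b, Tubb3 and Tubb5 overlap it in part. The motifs were the CCAAT box (CCAAT), the TATA box (TATAAA), the GC box (GGGCGG), the cyclic AMP response element (TGACGTCA) and the cell cycle homology region (TTTGAA). Shown are Tubb4b, which rose in both compartments, Tubb2a, which more than doubled in whole liver, and Tuba4a, which fell there. Each is written 5′ to 3′ on the strand of its gene (all minus), with every match in capitals, at chr2:25224703-25224952, chr13:34078009-34078258 and chr1:75219295-75219544.
Tubb4b: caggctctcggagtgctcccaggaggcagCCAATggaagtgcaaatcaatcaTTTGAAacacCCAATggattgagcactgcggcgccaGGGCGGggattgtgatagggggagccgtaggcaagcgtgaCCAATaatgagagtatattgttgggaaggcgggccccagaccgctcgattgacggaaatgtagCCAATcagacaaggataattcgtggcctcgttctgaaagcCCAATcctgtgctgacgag
Tubb2a: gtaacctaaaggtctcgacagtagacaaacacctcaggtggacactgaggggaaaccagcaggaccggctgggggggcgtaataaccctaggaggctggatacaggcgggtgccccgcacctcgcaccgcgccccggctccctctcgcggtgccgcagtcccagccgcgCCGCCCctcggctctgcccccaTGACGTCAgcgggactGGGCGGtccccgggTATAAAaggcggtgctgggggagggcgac
Tuba4a: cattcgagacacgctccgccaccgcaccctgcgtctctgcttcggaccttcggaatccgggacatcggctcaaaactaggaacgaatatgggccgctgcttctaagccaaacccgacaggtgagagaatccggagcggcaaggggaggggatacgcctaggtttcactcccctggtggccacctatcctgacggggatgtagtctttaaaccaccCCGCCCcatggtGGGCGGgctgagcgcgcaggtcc

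The Tubb4b stretch held 5 CCAAT boxes, 1 GC box and 1 TTTGAA. That of Tubb2a held no CCAAT box, but a TATAAA that began 29 bases before the start, 2 GC boxes and 1 TGACGTCA. Tuba4a had 2 GC boxes and none of the other motifs. Among the others, Tubb5 had 2 CCAAT boxes, Tuba1a, Tuba1c and Tubb3 had 1 each, and Tuba1b had none. For scale, 33.8% of the 32851 promoters in the table held at least 1 CCAAT box, 32.7% a GC box, 16.0% TTTGAA, 12.4% TATAAA and 1.5% TGACGTCA within the same 250 bases. These are matches of letters in a window and not shown to be sites.

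Because the isotypes are so alike, a read of 75 bases can fit several of them. Every 75-base stretch of the transcripts of Tuba4a, Tubb3, Tubb5 and Tubb6 occurs in no other gene's transcript. The share of such stretches was 67.8% for Tubb2b, 62.2% for Tubb4b, 56.8% for Tubb2a, 43.3% for Tuba1c, 31.8% for Tuba1a and 28.1% for Tuba1b. Tuba1b shared 892 stretches with Tuba1c, Tuba1a shared 690 with Tuba1c, Tubb2a shared 618 with Tubb2b, and Tubb4b shared 514 with its pseudogene Tubb4b-ps1. RSEM divides such reads between genes by estimation, so levels of these 6 isotypes are less certain than those of the other 4.

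By estimate, 1 FPKM on 1 kb of transcript stood for 39.0 to 49.3 reads in WT and 35.1 to 40.8 in Cdk1 Liv-/- hepatocytes. It stood for 41.7 to 43.1 reads in WT liver and 47.7 to 48.1 in Cdk1 Liv-/- liver, so that depth was higher in Cdk1 Liv-/- liver without overlap. Cdk1 itself, the targeted gene, was at 27.88, 20.38 and 28.16 FPKM in WT hepatocytes and at 9.68, 11.8 and 6.87 in Cdk1 Liv-/- hepatocytes, and fell from 21.5 to 25.32 FPKM in WT liver to 11.66 to 14.17 in Cdk1 Liv-/- liver. These values count the whole gene and not only the exon that Cre removes. The 10 hepatocyte markers were abundant in every library, and were lower in sum in all 6 Cdk1 Liv-/- libraries than in all 6 WT libraries. Their sum was 84300 to 93600 FPKM in WT hepatocytes and 85700 to 88800 in WT liver, against 56900 to 61400 and 61400 to 67400 in Cdk1 Liv-/-, with 6 of the 10 lower in Cdk1 Liv-/- liver, and in hepatocytes 2 lower and 2 higher. Of all genes 7.53% were lower and 38% higher in liver by the same test, and 6.61% lower and 12.1% higher in hepatocytes. Markers of other cells moved with the groups too. The 6 cholangiocyte markers summed to 14.6 to 30.1 FPKM in WT and 66.8 to 124 in Cdk1 Liv-/- hepatocytes. In whole liver they summed to 45.9 to 62.2 and 139 to 270 FPKM. Most of each sum was Spp1, at 13.46 to 28.68 FPKM in WT and 62.96 to 119.92 FPKM in Cdk1 Liv-/- hepatocytes. The sums thus mainly follow that gene. Of the 5 markers tested, 4 were higher in both compartments, or 4 in hepatocytes and 2 in liver with libraries scaled by median ratios. The 8 neutrophil markers summed to 12 to 49.9 and 9.62 to 20.6 FPKM in hepatocytes of the 2 genotypes and to 44.7 to 72.4 and 86.4 to 307 in liver, where 5 were higher. The part of these cells in the tubulin differences was not tested. The summed FPKM of 10 stellate cell and fibroblast markers in WT was 119 to 402 for hepatocytes and 454 to 521 for liver, and in Cdk1 Liv-/- it was 100 to 117 for hepatocytes and 836 to 1120 for liver. That of 10 macrophage markers was 178 to 590, 460 to 510, 117 to 185 and 548 to 723 in the same order, and none of the markers of these lists was at 0 throughout a group. Replicate 3 of WT hepatocytes stood apart as the highest of the 6 hepatocyte libraries for the stellate cell (402), macrophage (590) and endothelial (221) sums. The labels of 1 other library can be questioned: the study's methods give male mice, and replicate 3 of Cdk1 Liv-/- liver had 158.0 FPKM of Xist, the RNA of the inactive X chromosome, against at most 0.14 in the other 11.

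In WT mice, tubulin mRNA was made up of a few abundant isotypes, the leading ones being the same in hepatocytes and whole liver. Per length, Tuba1b was the highest in WT hepatocytes at 117 ± 14.1 FPKM (SD, n = 3), followed by Tuba4a (97.8 ± 21.3), Tubb2a (89.6 ± 8.23), Tubb4b (76.6 ± 3.61), Tuba1c (62.2 ± 11) and Tubb5 (49.4 ± 8.97). The libraries of neighbours in that order overlapped, except between Tubb2a and Tubb4b and between Tubb4b and Tuba1c. Tubb6 (12.3 ± 1.79) and Tuba1a (11.3 ± 7.62) were well below, and the neuronal isotypes Tubb2b (0.123 ± 0.0924) and Tubb3 (0.0133 ± 0.0231) were close to 0. WT whole liver had the same leading isotypes, with Tuba1b at 128 ± 4.21, Tuba4a at 106 ± 7.16, Tubb4b at 81.6 ± 6.54 and Tubb2a at 73.6 ± 7.64 FPKM. Without Cdk1 the order was another. In Cdk1 Liv-/- hepatocytes Tubb4b (183 ± 60.9), Tuba1b (164 ± 64.3), Tuba1c (121 ± 52.1) and Tubb2a (111 ± 25.6) led, with overlapping libraries, ahead of Tuba4a (66.4 ± 16.6), Tubb6 (46.2 ± 16.2), Tubb5 (43.2 ± 9.03) and Tuba1a (5.23 ± 1.41). In Cdk1 Liv-/- liver Tubb2a (179 ± 20.4), Tuba1b (173 ± 7.25) and Tubb4b (158 ± 23.1) overlapped at the top, followed by Tuba1c (94.6 ± 17.4), Tubb5 (77.2 ± 8.55), Tuba4a (66.6 ± 7.06), Tubb6 (35.8 ± 3.28) and Tuba1a (30.7 ± 4.59).

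**Figure D1:**
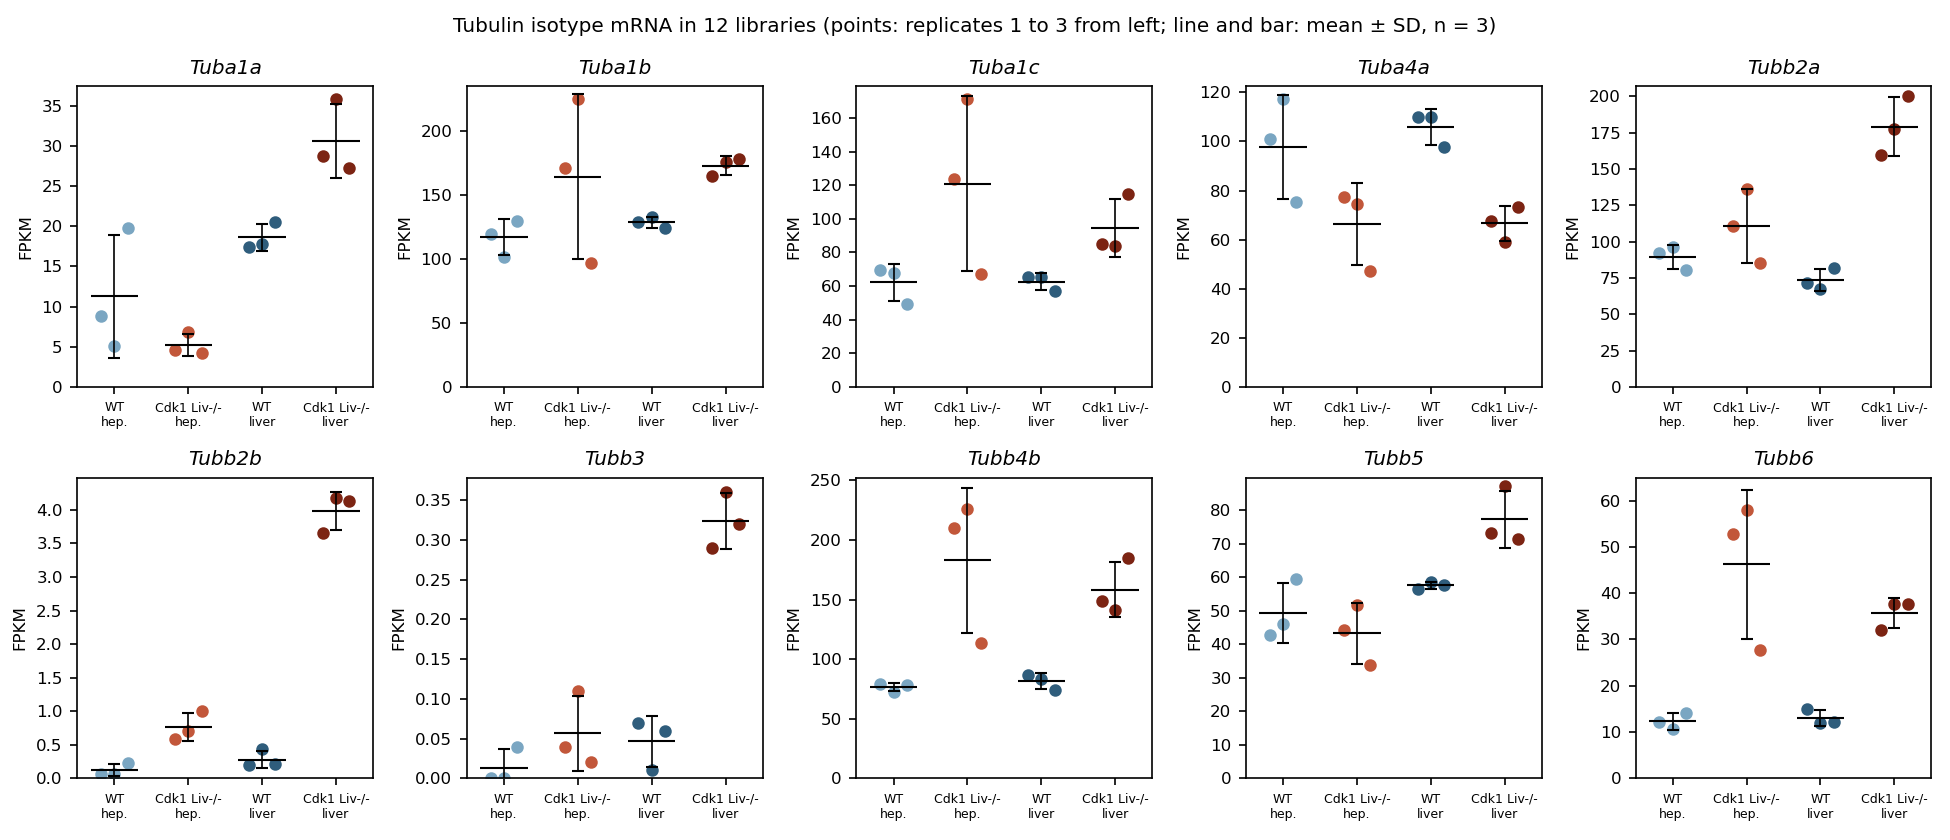
FPKM of the 10 isotypes in the 12 libraries, 1 panel per gene on a linear axis that starts at 0, with the 3 replicates of each group as points and the mean and SD as line and bar. Tubb6, Tubb4b and Tubb2b are higher in every Cdk1 Liv-/- library than in every WT library. Tuba4a is lower in Cdk1 Liv-/- liver, and Tubb2a and Tubb2b are highest in Cdk1 Liv-/- liver.

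The first comparison asked which isotypes differ between Cdk1 Liv-/- and WT hepatocytes. Tubb6, Tubb4b and Tubb2b, all beta-tubulins, were higher without Cdk1, and no isotype passed as lower. The test was limma on log2(FPKM + 0.5), with Benjamini-Hochberg adjustment of p-values across 17386 genes whose mean FPKM reached 0.1, and a gene passed at an adjusted p of at most 0.1. A fold change on this scale understates the change of genes near or below 0.5 FPKM. Of the 10 isotypes 3 passed as higher, where 12.1% of all genes tested did, and 0 passed as lower, where 6.61% did; at an unadjusted p under 0.05 limma had 4 higher and 0 lower, and a two-sample test had 2 higher and 0 lower after adjustment. The same 3 were the isotypes whose libraries did not overlap between genotypes, which held for 34% of all genes. Over the 10 isotypes the median log2 fold change was 0.35, beside 0.049 over all genes.

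Tubb6, a beta isotype of low level in WT liver, had the largest log2 fold change at a pseudocount of 0.5 or 1, while Tubb2b had it at 0.1. It was at 12.2, 10.56 and 14.14 FPKM in WT hepatocytes and at 52.81, 58.05 and 27.78 FPKM in Cdk1 Liv-/- hepatocytes. Even the lowest Cdk1 Liv-/- library was thus well above the highest WT library. The log2 fold change was 1.81 (SE 0.29, adjusted p = 0.0149), a 3.5-fold difference.

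Tubb4b, a widely expressed beta isotype found in cytoplasmic and ciliary microtubules, stood at 79.4, 72.55 and 77.94 FPKM in WT hepatocytes. In Cdk1 Liv-/- hepatocytes it was at 209.88, 225.82 and 113.27 FPKM, so that the groups did not overlap. Its mean was the highest of the isotypes there, though its libraries overlapped those of Tuba1b. The log2 fold change of Tubb4b was 1.19 (SE 0.26, adjusted p = 0.0391). The call was lost without replicate 1 of WT (adjusted p = 0.113), without replicate 1 of Cdk1 Liv-/- (0.109), without the filter on low genes (0.108) and in the two-sample test (0.131), over a range of 0.00305 to 0.131 among the alternatives. Part of its sequence is shared with other genes, chiefly a pseudogene.

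Tubb2b, an isotype of the developing brain, was at 0.07, 0.07 and 0.23 FPKM in WT hepatocytes and 0.59, 0.7 and 1 FPKM in Cdk1 Liv-/- hepatocytes. By the estimated depth these values stand for 6 to 23 reads and 51 to 74 reads a library. The groups did not overlap, and the log2 fold change was 1.02 (SE 0.17, adjusted p = 0.0179). Even so, Tubb2b made up under 1% of beta-tubulin mRNA in hepatocytes, 0.384% in the library with the most.

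Tuba1c, an alpha isotype, was at 69.31, 67.8 and 49.52 FPKM in WT and at 123.6, 171.58 and 67.48 FPKM in Cdk1 Liv-/- hepatocytes. Replicate 3 of the Cdk1 Liv-/- group lay within the WT range while the other 2 were above it, and the log2 fold change of 0.87 (SE 0.34) had an adjusted p of 0.16. Tuba1b, the leading alpha isotype, likewise had 2 Cdk1 Liv-/- libraries above the WT range, while replicate 3 lay below it, at 118.92, 101.46 and 129.4 FPKM in WT and 170.67, 224.51 and 96.49 FPKM in Cdk1 Liv-/- hepatocytes (log2 fold change 0.41, SE 0.30, adjusted p = 0.417). Without replicate 3 of Cdk1 Liv-/- hepatocytes both passed, with log2 fold changes of 1.24 (adjusted p = 0.0394) and 0.75 (0.0686), and the count of isotypes passing as higher went from 3 to 5. Without replicate 2 of the same group the values were lower instead, 0.57 for Tuba1c (adjusted p = 0.32) and 0.15 for Tuba1b (0.778). With 1 spread estimated over all 12 libraries, Tuba1c passed too (adjusted p = 0.0457). Replicate 3 of Cdk1 Liv-/- hepatocytes was the lowest of its group for 9 of the 10 isotypes, all but Tubb2b. It also had the lowest summed level of 10 cycling cell markers in its group, 191 FPKM against 342 and 378, where WT hepatocytes had 88.5 to 125; the part of cycling genes in the tubulin differences was not tested.

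The other 5 isotypes did not pass in hepatocytes. Tuba4a was at 100.81, 117.35 and 75.17 FPKM in WT and 77.39, 74.49 and 47.31 FPKM in Cdk1 Liv-/- hepatocytes, with overlapping groups and a log2 fold change of -0.56 (SE 0.24, adjusted p = 0.187). With 1 spread estimated over the 12 libraries it passed as lower (adjusted p = 0.0607), while without replicate 3 of Cdk1 Liv-/- the value was -0.34 (adjusted p = 0.367). Tubb2a was at 80.4 to 96.3 FPKM in WT and 85.01 to 136.22 FPKM in Cdk1 Liv-/- hepatocytes (log2 fold change 0.28, SE 0.18, adjusted p = 0.347). Tubb5, the beta isotype common to most cells, ran from 42.62 to 59.55 FPKM and from 33.66 to 51.61 FPKM (log2 fold change -0.20, SE 0.19, adjusted p = 0.541). Over the alternatives the log2 fold change ran from 0.12 to 0.46 for Tubb2a and from -0.33 to -0.03 for Tubb5, and neither passed. Tubb3 was listed at 0 in 2 WT libraries and reached 0.11 FPKM, an estimated 8 reads, in the highest Cdk1 Liv-/- library.

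Tuba1a had the largest standard error of the log2 fold change among the isotypes in hepatocytes. It was at 8.84, 5.15 and 19.8 FPKM in WT and at 4.58, 6.85 and 4.27 FPKM in Cdk1 Liv-/- hepatocytes, with a log2 fold change of -0.86 (SE 0.46, adjusted p = 0.277). Its highest value was in replicate 3 of WT, the hepatocyte library with the highest levels of stellate cell, macrophage and endothelial markers. Without that library the log2 fold change was -0.37 (adjusted p = 0.51). Over all alternatives it ran from -1.29 to -0.37 and did not pass, with an adjusted p of 0.112 to 0.51. Of the 9 endothelial markers tested, 9 were lower in Cdk1 Liv-/- hepatocytes, where 6.61% of all genes were, and their sums were 81.2 to 221 FPKM in WT and 35.2 to 53.5 FPKM in Cdk1 Liv-/- hepatocytes. By the same test 2 of 10 stellate cell and 1 of 10 macrophage markers were lower, the latter 5 with median ratios. The part of these cells in the levels of Tuba1a was not tested.

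**Figure D2:**
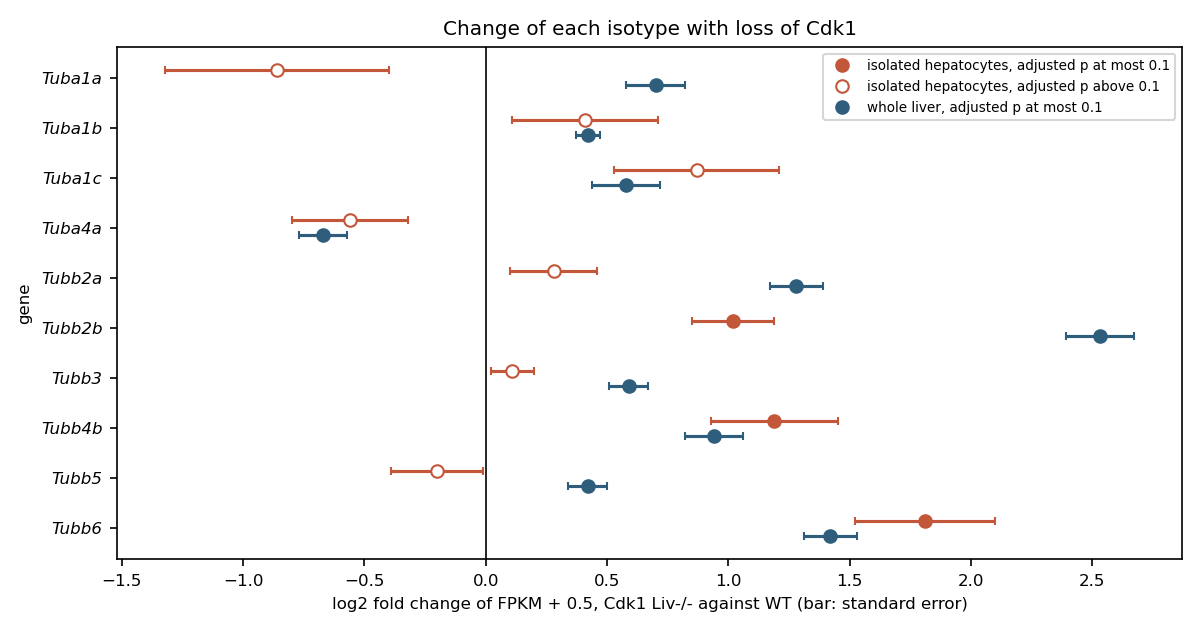
Log2 fold change of FPKM + 0.5 between Cdk1 Liv-/- and WT for each isotype (x axis) in isolated hepatocytes and in whole liver, with standard errors as bars and filled points for an adjusted p of at most 0.1. In hepatocytes 3 isotypes pass, all higher, and in whole liver every point is filled, with Tuba4a alone lower and Tubb3 tested only because of its level in Cdk1 Liv-/- liver.

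In whole liver, the question was the same, with the non-hepatocyte cells included. Of the 10 isotypes 9 had levels that placed them in the test without the Cdk1 Liv-/- liver libraries, and all 9 differed between the genotypes, 8 of them higher and Tuba4a lower in Cdk1 Liv-/-, with no overlap. The tenth, Tubb3, reached the filter through Cdk1 Liv-/- liver alone and is described apart. Over all genes tested, 38% passed as higher and 7.53% as lower, and 52.1% did not overlap. The median log2 fold change of all genes was 0.18, and scaling each library by its median ratio to the others brought it to 0.013. The median over the 9 isotypes was 0.70 without that scaling. Over all 10 it was 0.64 without that scaling and 0.49 with it. With that scaling 7 isotypes, Tubb3 among them, still passed as higher and 1 as lower, while Tuba1c (log2 fold change 0.36, adjusted p = 0.115) and Tubb5 (0.20, adjusted p = 0.106) did not. The shares of all genes, here and for the gene lists, are from the fit without that scaling. Tubb2b, Tubb6 and Tubb2a had a log2 fold change of at least 1, where 4.59% of all genes passed as higher by that much. Without the library of high Xist level, the counts over all 10 were again 9 higher and 1 lower. The 10 cycling cell markers summed to 97.9 to 127 FPKM in WT and 163 to 234 FPKM in Cdk1 Liv-/- liver, with 9 of 10 higher (7 with median ratios), and their part in the tubulin differences was not tested.

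Tubb2b was the isotype that rose most in whole liver. WT liver had 0.2, 0.43 and 0.21 FPKM and Cdk1 Liv-/- liver 3.66, 4.17 and 4.13 FPKM, an estimated 18 to 38 against 371 to 419 reads. The Cdk1 Liv-/- libraries were close to each other and far above every other library of the series. The log2 fold change was 2.53 (SE 0.14, adjusted p = 0.000383).

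Its neighbour Tubb2a, one of the main beta isotypes of liver, was at 71.2, 67.48 and 82.17 FPKM in WT and at 159.73, 177.32 and 200.45 FPKM in Cdk1 Liv-/- liver. All 3 Cdk1 Liv-/- liver libraries were above all other libraries of the series, hepatocytes of the same genotype included. The log2 fold change was 1.28 (SE 0.11, adjusted p = 0.00159). Since both genes share sequence, the small Tubb2b values in particular depend on how reads were divided between them.

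Tubb6 was at 14.98, 12.01 and 12.18 FPKM in WT and 31.99, 37.76 and 37.58 FPKM in Cdk1 Liv-/- liver (log2 fold change 1.42, SE 0.11, adjusted p = 0.00115). Tubb4b went from 87.06, 83.4 and 74.36 FPKM to 148.74, 141.45 and 184.68 FPKM (log2 fold change 0.94, SE 0.12, adjusted p = 0.00436). These 2 isotypes, like Tubb2b, therefore rose in both compartments. Tubb3, the class of beta-tubulin used as a marker of neurons, was at 0.07, 0.01 and 0.06 FPKM in WT and 0.29, 0.36 and 0.32 FPKM in Cdk1 Liv-/- liver, an estimated 1 to 5 against 25 to 31 reads (log2 fold change 0.59, SE 0.08, adjusted p = 0.00481). Its mean over the other 9 libraries was 0.0389 FPKM, below the filter, so that it had to differ to be tested, here and in every comparison with this group. The 8 neuron and Schwann cell markers summed to 2.91 to 3.09 FPKM in WT liver and 2.48 to 3.24 FPKM in Cdk1 Liv-/- liver, and 0 of the 4 tested passed as higher by limma, also at an unadjusted p under 0.05.

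Among the alpha isotypes of whole liver, Tuba1a was at 17.44, 17.83 and 20.59 FPKM in WT and 28.77, 35.89 and 27.3 FPKM in Cdk1 Liv-/- (log2 fold change 0.70, SE 0.12, adjusted p = 0.0106). Tuba1c went from 56.96 to 65.49 FPKM up to 84.04 to 114.69 FPKM (log2 fold change 0.58, SE 0.14, adjusted p = 0.0254) and Tuba1b from 124.19 to 132.6 FPKM up to 164.38 to 177.92 FPKM (0.42, SE 0.05, adjusted p = 0.00466). With 1 spread estimated over the 12 libraries these 3 did not pass (adjusted p = 0.183, 0.154 and 0.206). Median-ratio scaling gave 0.48 for Tuba1a (adjusted p = 0.0369) and 0.20 for Tuba1b (adjusted p = 0.027). Tubb5 was at 56.47, 58.56 and 57.54 FPKM in WT and 73.09, 87.03 and 71.47 FPKM in Cdk1 Liv-/- liver (log2 fold change 0.42, SE 0.08, adjusted p = 0.016). Of the 10 stellate cell and fibroblast markers 6 were higher in Cdk1 Liv-/- liver by the same test, where 38% of all genes were, and the part of such cells in the rise of Tuba1a, Tubb5, Tubb2a, Tubb2b and Tubb3 was not tested.

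Tuba4a ran against the rest. It was at 110.18, 109.95 and 97.66 FPKM in WT and at 67.45, 59.2 and 73.25 FPKM in Cdk1 Liv-/- liver, so that every Cdk1 Liv-/- library was lower. Its log2 fold change was -0.67 (SE 0.10, adjusted p = 0.00616), a level of 0.629 times that of WT, and -0.89 with median-ratio scaling. Its mRNA shares no 75-base stretch with another gene.

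**Figure D3:**
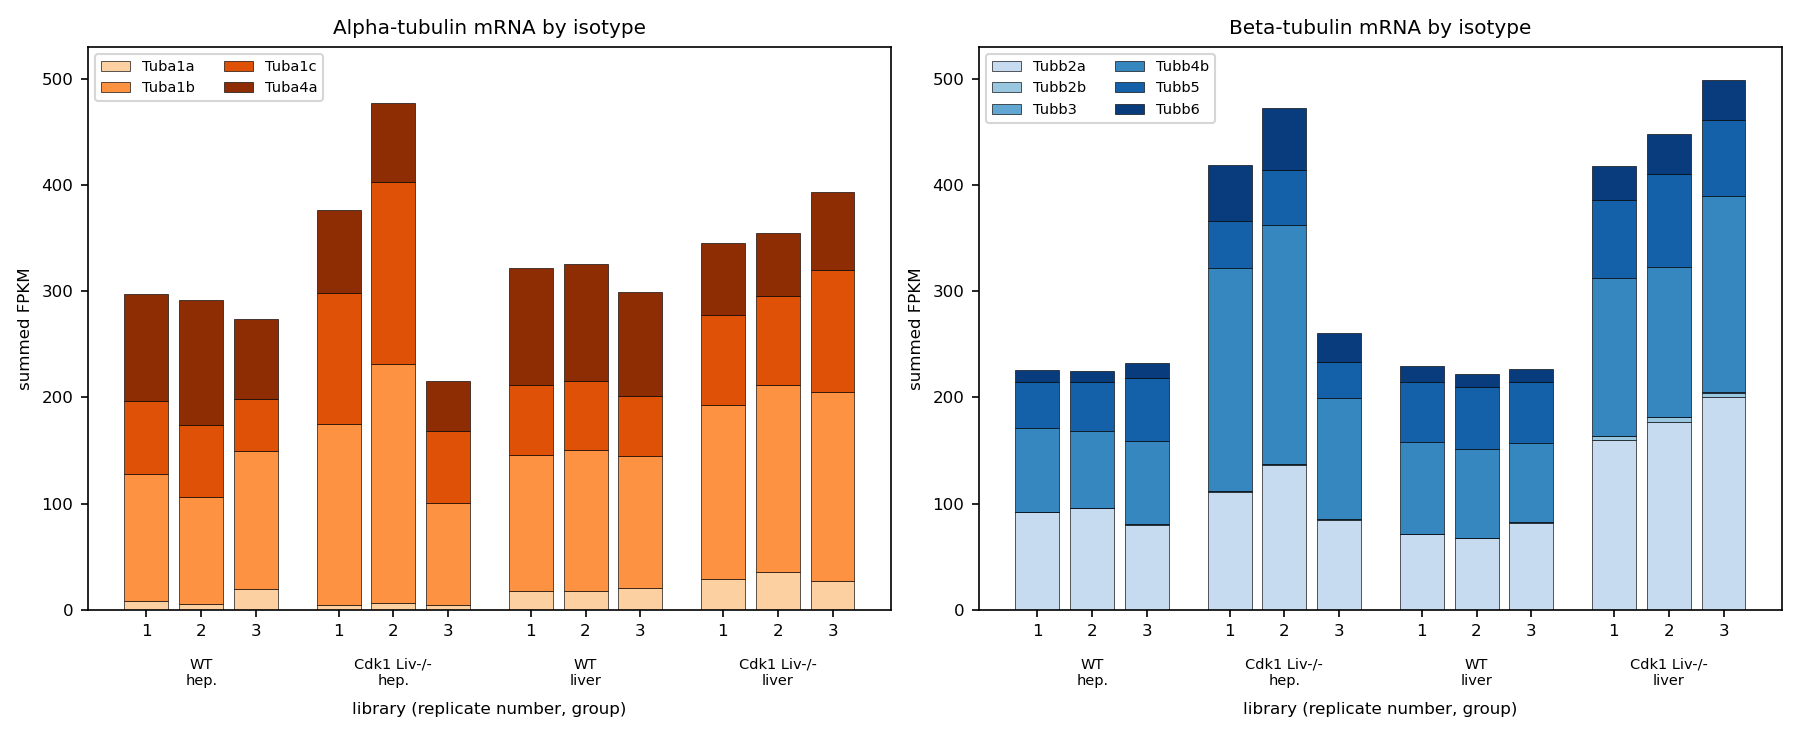
Summed FPKM of the 4 alpha (left) and 6 beta (right) isotypes in each library, stacked by isotype, with replicate numbers and groups on the x axis. Beta-tubulin mRNA is at 222 to 232 FPKM in all 6 WT libraries and at 261 to 499 FPKM in the 6 Cdk1 Liv-/- libraries.

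Added up per length, the isotypes give the pools of alpha and beta mRNA. The beta pool was tight in WT, at 225 to 232 FPKM in hepatocytes and 222 to 230 FPKM in whole liver, and was 261 to 473 FPKM in Cdk1 Liv-/- hepatocytes and 418 to 499 FPKM in Cdk1 Liv-/- liver. The alpha pool was at 274 to 298 FPKM in WT hepatocytes and 216 to 477 FPKM in Cdk1 Liv-/- hepatocytes, which overlap, and at 299 to 326 and 346 to 393 FPKM in whole liver. Beta was thus higher relative to alpha without Cdk1. The ratio of beta to alpha mRNA was 0.76, 0.773 and 0.848 in WT hepatocytes and 1.11, 0.99 and 1.21 in Cdk1 Liv-/- hepatocytes. In whole liver it was 0.715, 0.681 and 0.757 against 1.21, 1.26 and 1.27. A ratio within a library does not depend on how libraries are scaled, and all 6 Cdk1 Liv-/- libraries, replicate 3 of hepatocytes included, were above all 6 WT libraries. These sums are descriptions and were given no test.

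Within the alpha pool, the share of Tuba4a was 33.8, 40.2 and 27.4% in WT hepatocytes and 20.6, 15.6 and 21.9% in Cdk1 Liv-/- hepatocytes. In whole liver it was 34.2, 33.7 and 32.6% against 19.5, 16.7 and 18.6%, so the shares did not overlap in either compartment. Tuba1c took a larger share, 21.5 ± 2.99% (SD, n = 3) in WT and 33.4 ± 2.36% in Cdk1 Liv-/- hepatocytes, and 19.8 ± 0.702% and 25.8 ± 2.94% in whole liver. Tuba1b held 40.6 ± 6.27% and 45.7 ± 1.17% in hepatocytes, a difference within the spread, and 40.7 ± 0.75% and 47.4 ± 2.13% in whole liver.

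The shares of the beta pool were as follows, with no test of a difference between compartments. In hepatocytes the share of Tubb4b went from 33.6 ± 1.45% to 47.1 ± 3.4% and that of Tubb6 from 5.39 ± 0.701% to 11.9 ± 1.05%, while Tubb2a went from 39.3 ± 4.22% to 29.3 ± 3.08% and Tubb5 from 21.6 ± 3.57% to 11.5 ± 1.25%. In whole liver Tubb4b held 36.1 ± 2.83% and 34.7 ± 2.84%, which overlap, Tubb6 went from 5.77 ± 0.646% to 7.88 ± 0.482% without overlap, as in hepatocytes, and Tubb2a went from 32.5 ± 3.24% to 39.3 ± 0.991%. Tubb5 had a smaller share in Cdk1 Liv-/- in whole liver too, 17.1 ± 2.57% against 25.4 ± 0.919%, although its own level was higher there.

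Whether the genotype change of an isotype differed between compartments was tested as an interaction in 1 fit of all 12 libraries. The change was smaller in hepatocytes than in whole liver for Tubb2b (difference in log2 fold change -1.52, SE 0.23, adjusted p = 0.0221) and Tubb2a (-0.99, SE 0.22, adjusted p = 0.0521). These are 2 of the 9 isotypes other than Tubb3, where 7.49% of all genes passed with a smaller change in hepatocytes. By limma 0 passed the other way, where 2.35% did. At an unadjusted p under 0.05 limma had 5 of the 10 isotypes, Tubb3 counted, with a smaller change in hepatocytes and 0 the other way. Of Tubb2b and Tubb2a, only Tubb2b differed by at least 1 on the log2 scale, where 3.15% of all genes passed as lower by that much. The median over all genes was -0.11, and 0.011 with median-ratio scaling, under which Tubb2b (-1.32, adjusted p = 0.0317) and Tubb2a (-0.85, adjusted p = 0.0851) passed. Tubb2a lost the call without replicate 1 (adjusted p = 0.14) or 2 (0.11) of WT liver or replicate 2 of Cdk1 Liv-/- liver (0.101), leaving Tubb2b. Tubb3, tested only through Cdk1 Liv-/- liver, had a difference of -0.48 (SE 0.13, adjusted p = 0.0788), which did not pass in most alternatives, where its adjusted p ran from 0.06 to 0.159.

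For Tuba1a the estimated changes had opposite signs in the 2 compartments, and the difference was -1.56 (SE 0.51, adjusted p = 0.105). It did not pass with median ratios (-1.42, adjusted p = 0.139) or a replicate block (0.151), and over all alternatives ran from -1.99 to -1.07 with an adjusted p of 0.0193 to 0.213. It passed with the filter at a mean FPKM of 1 (adjusted p = 0.0976), with libraries rescaled to the same sum (0.0995) and without replicate 2 of WT hepatocytes (-1.99, adjusted p = 0.0193). Tubb5 (-0.61, SE 0.22, adjusted p = 0.133) passed without replicate 2 of Cdk1 Liv-/- hepatocytes (adjusted p = 0.0842). Tubb6, whose change was 1.81 in hepatocytes and 1.42 in whole liver, had a difference of 0.38 (SE 0.33, adjusted p = 0.523), and passed as larger in hepatocytes without replicate 3 of Cdk1 Liv-/- hepatocytes (0.71, adjusted p = 0.0898), while without replicate 2 of that group the difference was 0.19 (adjusted p = 0.753). A change of equal size in both compartments is not shown by these values.

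Hepatocytes and whole liver were also compared within each genotype. In WT, 0 of the 10 isotypes passed, where 1.52% of all genes did, and all overlapped, where 26% of all genes did not; at an unadjusted p under 0.05 limma had 1, Tubb2a, which was higher in hepatocytes (log2 difference 0.28, SE 0.10, adjusted p = 0.225). After adjustment the two-sample test had 0. Tuba1a was at 5.15 to 19.8 FPKM in hepatocytes and 17.44 to 20.59 FPKM in liver (-0.90, SE 0.44, adjusted p = 0.325). Without replicate 3 of WT hepatocytes, Tuba1a (-1.39, adjusted p = 0.0445) and Tubb5 (-0.37, adjusted p = 0.0394) passed as lower in hepatocytes and Tubb2a (0.36, adjusted p = 0.0864) as higher. Other libraries moved the values toward 0, as Tuba1a was at -0.47 (adjusted p = 0.505) without replicate 2 and Tubb5 at -0.14 (0.623) without replicate 1 of WT hepatocytes.

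In Cdk1 Liv-/- mice, 4 of the 9 isotypes other than Tubb3 were lower in hepatocytes than in whole liver and 0 were higher, where 35.9% of all genes passed as lower and 8.86% as higher. With Tubb3 counted, limma had 5 and 0, also at an unadjusted p under 0.05, as did the two-sample test after adjustment. They were Tuba1a (log2 difference -2.46, SE 0.19, adjusted p = 0.000799), Tubb2b (-1.84, SE 0.15, adjusted p = 0.000894), Tubb5 (-0.85, SE 0.17, adjusted p = 0.0127) and Tubb2a (-0.71, SE 0.19, adjusted p = 0.0291). Tubb3, in the test only through its level in Cdk1 Liv-/- liver, had -0.57 (SE 0.10, adjusted p = 0.00802). In these 5 no hepatocyte library reached the lowest liver library, as in 40.3% of all genes. Tuba1a and Tubb2b were lower by at least 1 on the log2 scale, where 9.46% of all genes passed by that much. Over all genes the median was -0.19, and 0.016 with median-ratio scaling, under which Tubb2a did not pass (-0.44, adjusted p = 0.109). Without replicate 3 of Cdk1 Liv-/- hepatocytes 3 isotypes passed as higher in hepatocytes, Tuba1c, Tubb4b and Tubb6 (for Tubb6 0.63, adjusted p = 0.0197). With all libraries Tubb6 was at 0.30 (SE 0.28, adjusted p = 0.433), and without replicate 2 of the same group at 0.10 (adjusted p = 0.805). All 10 stellate cell, 10 macrophage and 9 endothelial markers tested were lower in these hepatocytes than in whole liver by the same test, and their part in the tubulin differences was not tested.

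**Figure D4:**
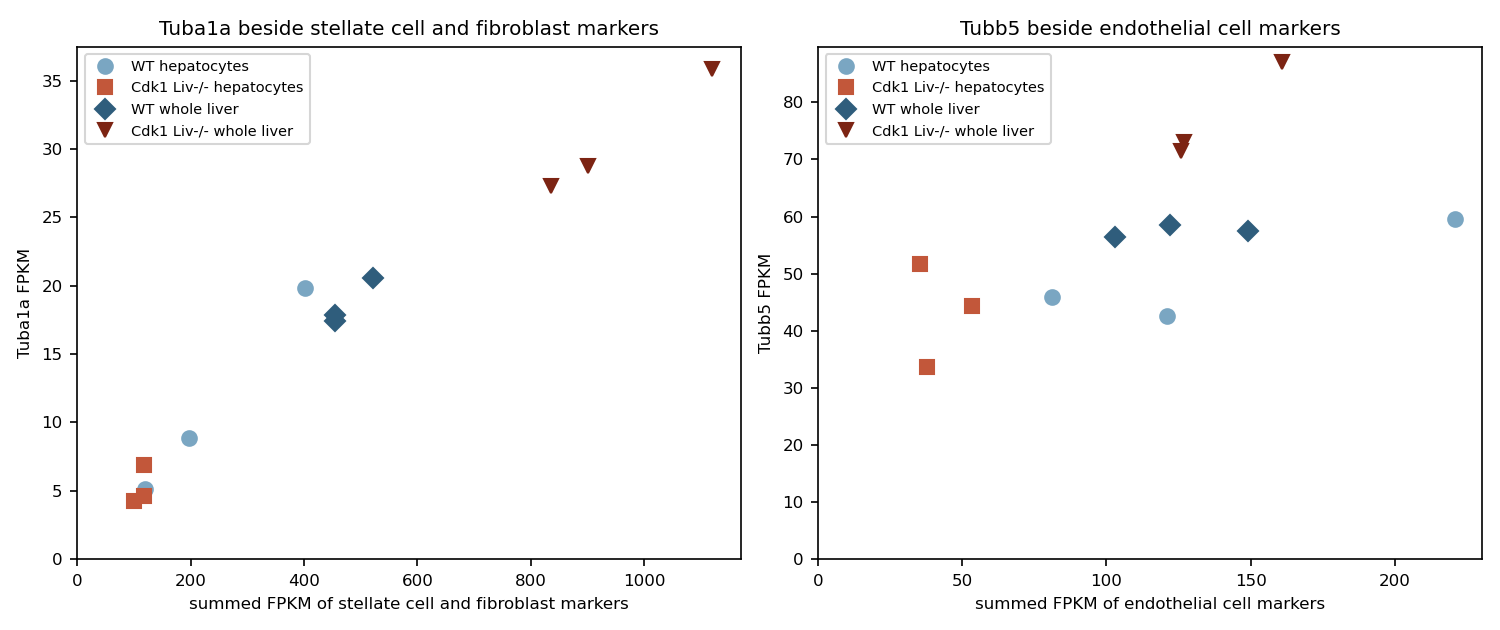
Left, FPKM of Tuba1a against the summed FPKM of 10 stellate cell and fibroblast markers, and right, FPKM of Tubb5 against the summed FPKM of 9 endothelial markers, 1 point per library. The Cdk1 Liv-/- liver libraries are highest for both the stellate cell markers, at 836 to 1120 FPKM, and Tuba1a, at 27.3 to 35.89 FPKM. On the left the order of the 2 measures is the same within WT hepatocytes and within Cdk1 Liv-/- liver. In WT liver it differs only between sums of 455 and 454 FPKM, and in Cdk1 Liv-/- hepatocytes 2 sums are both 117 FPKM. On the right the order within groups is not always the same. The match on the left is not particular to stellate cells. The endothelial sums have the order of Tuba1a within WT hepatocytes (121, 81.2 and 221 FPKM), WT liver (103, 122 and 149) and Cdk1 Liv-/- liver (127, 161 and 126). Within Cdk1 Liv-/- hepatocytes (53.5, 35.2 and 37.6) they do not.

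Some isotypes varied together over the 12 libraries. As a description without a test, the log2 levels of Tubb4b and Tubb6 had a Pearson correlation of 0.98, those of Tuba1c and Tubb4b 0.92 and those of Tuba1a and Tubb5 0.92, and Tuba4a ran against Tubb6 (-0.68). These points share 4 groups of 3 libraries, so group differences make up much of each value. Among 12265 genes with a mean of at least 1 FPKM outside the tubulins, the nearest to Tubb6 were Rangap1, which stimulates the GTPase Ran (0.985), Arl6ip1, an endoplasmic reticulum protein (0.983), and AI506816 (0.981). Nearest to Tubb5 was Actb, the cytoplasmic actin (0.984). Tubb2a was most like Tmem68 (0.945), Mgst3 (0.942) and Tank (0.941), and Tuba1b most like Rbmx2 (0.953), the cap-binding factor Eif4e (0.953) and Ska2 (0.948), a spindle and kinetochore protein.

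**Figure D5:**
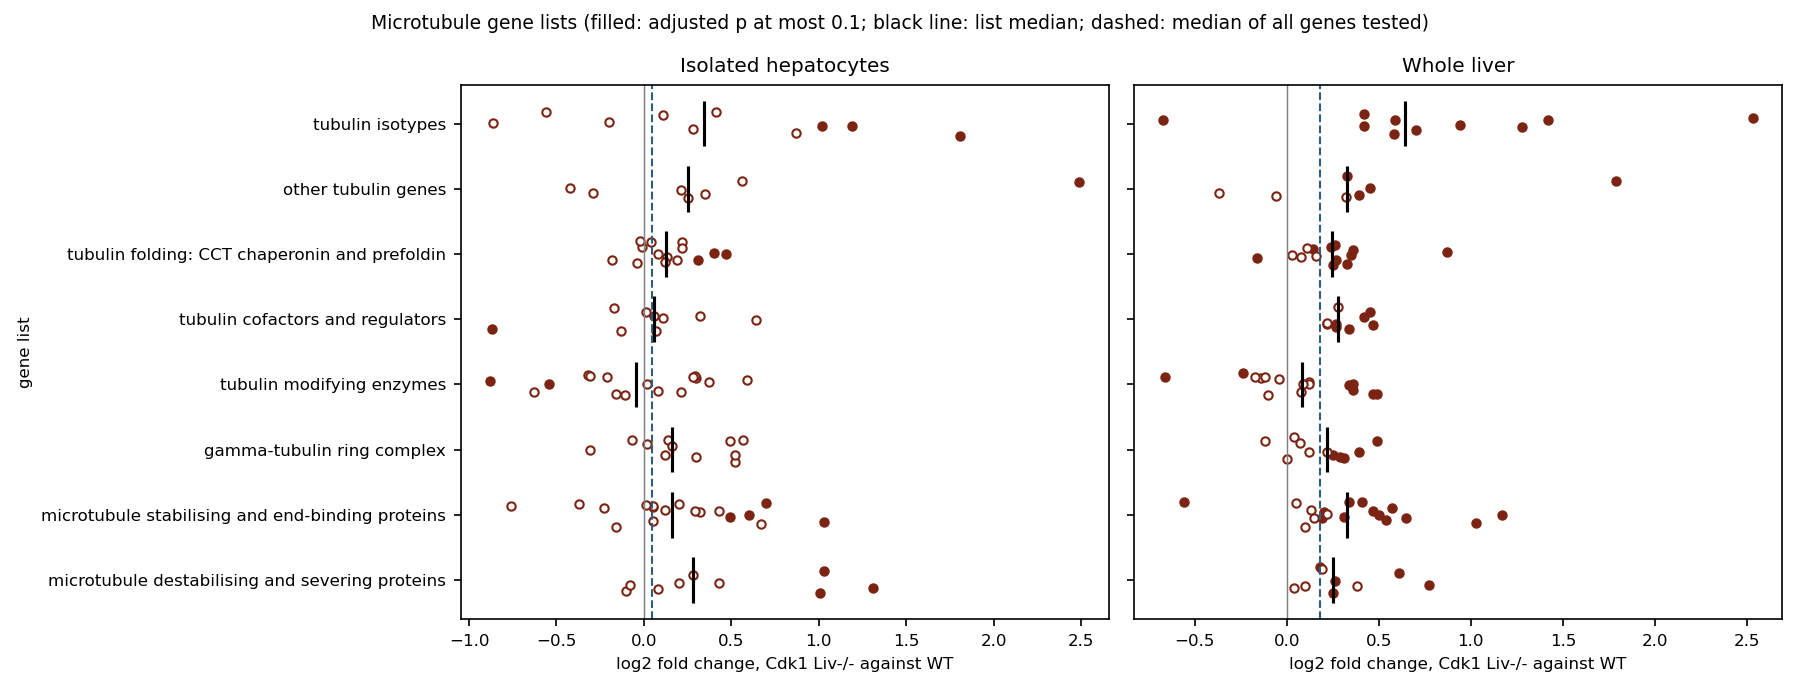
Log2 fold change between Cdk1 Liv-/- and WT (x axis) of each tested gene of the 10 isotypes and of 7 further lists of microtubule genes, in hepatocytes (left) and whole liver (right). Filled points pass an adjusted p of at most 0.1, black lines are list medians and the dashed line is the median of all genes, 0.049 and 0.18.

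Of the other 10 tubulin genes in the table, 7 passed the filter. Tuba8, a low-level alpha isotype, was at 0.59 to 0.62 FPKM in WT and 3.5 to 7.87 FPKM in Cdk1 Liv-/- hepatocytes (log2 fold change 2.49, SE 0.29, adjusted p = 0.00581), and at 0.93 to 1.31 and 4.37 to 5.88 FPKM in whole liver (1.79, SE 0.14, adjusted p = 0.00118). It was the 1 of 7 that passed in hepatocytes, near the 12.1% of all genes that passed as higher. There the centriole gene Tubd1 had a log2 fold change of 0.56 (adjusted p = 0.134), Tubb4a -0.29 (0.331) and the platelet isotype Tubb1 -0.42 (0.306). In whole liver 4 of 7 passed as higher, where 38% of all genes did, Tubb4a (0.45, adjusted p = 0.025) among them. Tubb4a, a beta isotype of oligodendrocytes, was at 0.12 to 0.49 FPKM in WT hepatocytes and 0.54 to 0.74 FPKM in WT liver, and at 0.12 to 0.18 and 0.97 to 1.21 FPKM in Cdk1 Liv-/-. With median-ratio scaling, an alternative chosen for the lists after seeing the data, 3 of 7 passed as higher in liver and Tubg1, the nucleating gamma-tubulin, as lower.

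New tubulin is folded by prefoldin and the chaperonin CCT. Of their 14 genes 3 were higher in Cdk1 Liv-/- hepatocytes and 9 in whole liver, where 12.1% and 38% of all genes were, with medians of 0.13 and 0.25 beside 0.049 and 0.18 over all genes. The prefoldin subunits Vbp1 (0.47, adjusted p = 0.0456) and Pfdn4 (0.40, adjusted p = 0.09) had the largest log2 fold changes in hepatocytes and Pfdn4 (0.87, adjusted p = 0.00259) the largest in liver. In liver the CCT subunit Tcp1 was the 1 gene that fell (-0.16, adjusted p = 0.0438). The counts of this list depended on scaling, since with median ratios 1 gene rose in hepatocytes, Vbp1, and in liver 1 rose, Pfdn4, and 2 fell, Pfdn2 and Tcp1. Folded subunits are joined and released with tubulin cofactors and the small GTPase Arl2. In hepatocytes, where 6.61% of all genes fell and 12.1% rose, Arl2 was the 1 of 9 that changed, from 2.8, 3.04 and 3.73 FPKM to 1.54, 1.4 and 1.6 FPKM (log2 fold change -0.87, SE 0.15, adjusted p = 0.0207), and in whole liver, where 7 of 9 rose beside 38% of all genes (2 with median ratios, Tbcb and Ttc5), it had a log2 fold change of 0.22 (adjusted p = 0.126). That difference between compartments was itself past the threshold (-1.09, SE 0.17, adjusted p = 0.0242). Ttc5, which recognises nascent tubulin in autoregulation, had log2 fold changes of -0.13 (adjusted p = 0.496) in hepatocytes and 0.45 (0.0181) in liver.

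Of 16 enzymes that modify tubulin 2 fell in hepatocytes, where 6.61% of all genes did, and 0 rose. At an unadjusted p under 0.05 limma had 3 lower and 0 higher. The 2 were Agbl3, a carboxypeptidase of the deglutamylase family (-0.88, SE 0.16, adjusted p = 0.0251), and Ttl, the ligase that restores the C-terminal tyrosine (-0.54, SE 0.17, adjusted p = 0.0923). Agbl3 fell in whole liver as well (-0.66, SE 0.13, adjusted p = 0.0165), where Ttll12 had the largest rise (0.49, adjusted p = 0.00713). Vash2 (0.47, adjusted p = 0.00806) reached the filter only through Cdk1 Liv-/- liver, its mean over the other libraries being 0.0967 FPKM. Of the 14 enzymes whose place in the test did not depend on a single group, 4 rose and 2 fell in liver, where 38% and 7.53% of all genes did. With median ratios 3 fell in each compartment, Agbl3 and Ttl in both, and Ttll12 and Ttll4 rose in liver besides Vash2. None of the 11 genes of the gamma-tubulin ring complex, which nucleates microtubules, passed in hepatocytes, where 4 had an unadjusted p under 0.05 and a higher level, and 5 rose in whole liver, a share near the 38% of all genes, with Tubgcp5 (0.49, adjusted p = 0.00859) first. With median ratios 2 of the 11 rose in liver, Cdk5rap2 and Tubgcp5, and 2 fell, Mzt2 and Nedd1.

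Of 18 stabilising and end-binding proteins 4 rose in hepatocytes, where 12.1% of all genes did. In whole liver 11 of 17 rose, where 38% of all genes did, leaving out Map1b, which reached the filter only through Cdk1 Liv-/- liver (mean over the others 0.0844 FPKM). The medians were 0.16 and 0.31. Mapre3, an end-binding protein, had the largest log2 fold change in both (1.03, adjusted p = 0.0199, and 1.17, adjusted p = 0.00108), from 9.05 to 12.68 FPKM in the 6 WT libraries to 18.25 to 28.76 FPKM in the 6 Cdk1 Liv-/- libraries. Camsap3, which holds the minus ends of microtubules, came next in hepatocytes (0.70, adjusted p = 0.0368) and the end-binding protein Clip2 in liver (1.03, adjusted p = 0.00389), and Mapt, or tau, fell in liver (-0.56, adjusted p = 0.0072). Of 9 destabilising and severing proteins 3 rose in hepatocytes, where 12.1% of all genes did. They were the depolymerase Kif2c (1.31, adjusted p = 0.0402), the severing enzyme homologue Fignl1 (1.03, adjusted p = 0.0735) and Stmn1, which sequesters tubulin dimers (1.01, adjusted p = 0.0446). In whole liver 5 rose, where 38% of all genes did, with Kif2c (0.77, adjusted p = 0.0188) and Fignl1 (0.61, adjusted p = 0.00643) leading again. With median ratios these 2 remained of the 5 in liver, and 7 stabilising and end-binding proteins passed as higher there, Mapre3 and Clip2 included, while Map2 and Mapt passed as lower in hepatocytes.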

How the data were processed

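The authors isolated polyadenylated RNA, prepared stranded libraries and sequenced single-end reads of 75 bp. Per the labels and the study's methods, the deposited values are FPKM from STAR alignment and RSEM 1.2.31 on mm10, to 2 decimals, with no normalization between libraries. For the STAR version and the annotation release, nothing is given in the sources used here. Since FPKM are not counts, limma 3.58.1 (R 4.3.3, eBayes with trend, two-sided) was run on log2(FPKM + 0.5) for genes whose mean FPKM reached 0.1, with Benjamini-Hochberg adjustment over 17386 genes and a threshold of 0.1. The study's own test was a two-sample T-test adjusted by q-values. A two-sample test is kept here as an alternative. Depth was estimated from the steps between low FPKM values. At the estimate 19.5 to 25.9% of the genes used lay within 0.03 reads of a step, against a median of 4.0 to 4.5% over the depths tried. Marker and pathway lists were written by hand, and members and lists were chosen with earlier results of these data known. Named genes are the 10 isotypes, Cdk1, in the other lists discussed the 2 largest and 2 smallest log2 fold changes of each comparison, not all printed, and the 3 genes most like 4 isotypes, of which those ranked after the first for Tubb5 are not reported here; Ttl, Stmn1 and Ttc5 in hepatocytes and Xist were named after their values were seen. Alternatives were other pseudocounts, filters, scalings and thresholds, 1 spread over 12 libraries, a replicate block and leaving out each library. Promoters and annotation came from RefSeq and GENCODE M21.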

Additional observations from a re-analysis of the deposited data

Results flagged for a closer look

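The genotype change differed between isolated hepatocytes and whole liver, by the interaction test, for Tubb2b and Tubb2a. The difference in log2 fold change, hepatocytes minus whole liver, was -1.52 for Tubb2b and -0.99 for Tubb2a. Among the other microtubule genes named, it was past the threshold for Arl2 (-1.09), Tubb4a (-0.74, adjusted p = 0.0915), Ttc5 (-0.58, adjusted p = 0.0602), Map2 (-0.52, adjusted p = 0.0977) and Pfdn5 (-0.45, adjusted p = 0.0814). All are smaller or more negative changes in hepatocytes, the direction in which 7.49% of all genes passed, against 2.35% in the other. Tubb3 (-0.48), Vash2 (-0.58, adjusted p = 0.0571) and Map1b passed in the same direction. All were in the test only because of their level in Cdk1 Liv-/- liver, so their values are a description. That of Tubb3 was past the threshold in few alternatives. Groups of 3 libraries were too small to look for single outlying values.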

How the results depend on the processing

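Over isotypes whose compartment difference exceeded its SE, and all isotypes for the genotype, refits mostly kept their call. Of 149 refits for the genotype in hepatocytes, 140 kept direction and call, as did 144 of 149 in whole liver, 93 of 113 for the difference between compartments, 100 of 104 for WT and 87 of 89 for Cdk1 Liv-/- compartments. When 1 library was left out, isotypes passing ranged from 2 to 5 higher and stayed at 0 lower in hepatocytes, and stayed at 9 higher and 1 lower in whole liver. They ranged from 0 to 1 higher and 1 to 4 lower for the difference between compartments, from 0 to 1 higher and 0 to 2 lower between WT compartments, and from 0 to 3 higher, with 5 lower throughout, between Cdk1 Liv-/- compartments. These counts hold Tubb3, which the filter admitted only through Cdk1 Liv-/- liver. Without it they were 8 higher and 1 lower in whole liver, 1 to 3 lower for the difference and 4 lower between Cdk1 Liv-/- compartments. A log2 fold change of at least 1 left 3 higher and 0 lower in whole liver, 1 lower for the difference between compartments and 2 lower between Cdk1 Liv-/- compartments, and an adjusted p of at most 0.05 left 1 lower for the difference. With 1 fit of 12 libraries 1 isotype, Tuba4a, passed as lower in hepatocytes. Tubb4b turned from -0.09 to 0.04 between WT compartments with median-ratio scaling, not past the threshold in either. Replicate numbers were not taken as pairs, since same-numbered libraries deviated together with correlations of -0.32 to 0.24. A fit with the replicate block had 3 higher and 1 lower isotypes in hepatocytes, the latter Tuba4a (-0.56, adjusted p = 0.0665), and 2 lower for the difference between compartments. The causes were not tested, and a lone library left out assumes that the others vary alike. Tubb3, at no more than an estimated 8 reads outside Cdk1 Liv-/- liver, is limited by depth.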
